A study of Rattus norvegicus with 12 samples.

Results

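Ribosome biogenesis factors are the proteins that make ribosomes without staying in them. The 51 rat genes described here were taken as a named list with earlier results of the same diet comparison known, and each was measured by the array probes whose RefSeq accession belongs to it. Of the 51, 45 had a probe, and these are 45 of the 21874 genes that could be tested in all. Of the 21874, 11400 had a gene symbol. The rest were counted by their accession, so a gene can be counted more than once. For the other 6 of the 51 members (Nop14, Rrp12, Tsr1 and Rcl1 of the small subunit, Rrp1b of the large subunit, and Nhp2) no probe was matched, and they have no value here. All 45 passed the filter on dim signal, and 44 of them were well above background on all 12 arrays. The exception was Utp20, which was so on 5 of 6 low protein arrays.

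The samples were livers of adult male Wistar rats, an outbred laboratory strain, taken after 4 weeks on 1 of 2 diets of equal energy. The 6 control rats ate 14% casein, the milk protein that was the protein source, and the 6 low protein rats ate 5% casein; no other treatment is labelled. Total RNA was labelled with Cy3 and put on single-colour Agilent arrays to follow liver genes during protein undernutrition. Each array held 1 numbered sample, taken here as 1 rat. Each level below is the processed signal on the log2 scale after subtraction of its array's 75th percentile, so 0 is the 75th percentile of the spots, and each difference is low protein minus control on that log2 scale. Arrays of this kind do not allow the level of 1 gene to be set against that of another, so only differences between rats are compared.

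A ribosome begins in the nucleolus, where RNA polymerase I transcribes the ribosomal DNA into a long precursor. Guided by small nucleolar RNAs (snoRNAs), protein complexes modify this precursor, and large sets of assembly factors fold and cut it into the small and the large subunit. The liver makes most plasma proteins and is rich in ribosomes, and making them is among the costliest tasks of a cell.

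The start regions of the genes are a property the choice of members did not use. They were searched for CACGTG, the palindromic E-box that MYC and related factors are known to bind, which reads the same on both strands. RefSeq promoters of the GRCr8 assembly, 250 bases before to 50 bases after the start, were held for 49 of the 51 members. CACGTG stood in 18 of the 49 (36.7%, exact binomial 95% interval 23.4% to 51.7%, counting error only). It stood in 1381 of 19005 promoters of all protein-coding genes (7.27%) and in 831 of the 9221 held for genes tested here (9.01%). Among other ribosome biogenesis genes, listed as non-members, 28 of 112 promoters held it (25.0%). The position differed too: in the 50 bases after the start alone, a window chosen after seeing the data, 10 members held it (20.4%) against 0.81% of all promoters and 8.04% of the non-member list. In the 250 bases before the start the shares were 16.3% of members, 17.0% of the non-member list (19 of 112) and 6.38% of all, so there the members did not exceed the other biogenesis genes. By role, the motif stood in 7 of 13 large subunit promoters, 8 of 20 small subunit promoters, 2 of 7 of the snoRNA-bound proteins, 1 of 5 nucleolar proteins of several steps and 0 of 4 polymerase I promoters.

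The windows below are those of the 4 measured members with the motif and the largest differences, shown to make its place at the start visible. Each has 30 bases, 5′ to 3′, with the motif in capitals. Position 1 is the first base from the start used for that promoter. The motif begins at 31 in Ebna1bp2, 39 in Nop2, -156 and -1 in Mybbp1a, and 27 in Rrp15. For Nop2 the annotated gene begins at chr4:159618894, before the start used, so the position depends on that choice. In GRCr8 the windows lie at chr5:137433552-137433581 (plus strand), chr4:159618986-159619015 (plus), chr10:57555290-57555319 and chr10:57555445-57555474 (plus), and chr13:100830769-100830798 (minus).
Ebna1bp2: gcgtcttgctggCACGTGgagtggcagccg
Nop2: tgaactcttccccaagtgCACGTGgagcgg
Mybbp1a, upstream: gcagtttctacaCACGTGtgcgagcacagg
Mybbp1a, at the start: gtctttcgagccCACGTGtttggttcagca
Rrp15: ccgttcaggactCACGTGtgaaccccggag
For Mybbp1a, the only member with 2 copies, the 249 bases that precede the copy at the start (chr10:57555208-57555456) give the context of the upstream copy.
Mybbp1a, before the start: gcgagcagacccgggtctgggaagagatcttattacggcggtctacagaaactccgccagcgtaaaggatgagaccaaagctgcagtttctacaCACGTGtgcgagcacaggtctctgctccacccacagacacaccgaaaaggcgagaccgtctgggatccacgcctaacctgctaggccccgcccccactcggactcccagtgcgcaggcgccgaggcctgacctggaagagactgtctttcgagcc

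A match is a description of these letters and no evidence of a bound factor. Members with and without it had like diet differences: the median was 0.41 in the 15 measured members with it and 0.39 in the 28 without it. The ranges were -0.00 to 0.62 with the motif and 0.00 to 0.88 without.

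Over all 45 measured members the low protein livers had more of these transcripts. The median difference was 0.41 (a ratio of 1.33), with a range of -0.00 for Dkc1 to 0.88 for Gar1, beside a median of -0.03 over all 21874 genes. The difference was above 0 for 44 members, where it was so for 9823 of all 21874 genes. It was at least 0.5 for 15 members and under 0.1 for 5. Because the members were chosen with this comparison in view, these differences are a description and no test is attached to them. At an adjusted p under 0.05 in limma, 26 members were called higher and 0 lower, where 3.48% of all genes were called higher and 3.05% lower; nothing is read from that count. In 15 members the lowest low protein rat lay above the highest control rat, as it did in 3% of all genes; in 0 members was every low protein rat below the control rats, as in 1.98% of all genes. These were bulk samples, so that a difference in the number of cells of a type and a difference in RNA per cell cannot be told apart.

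**Figure D1:**
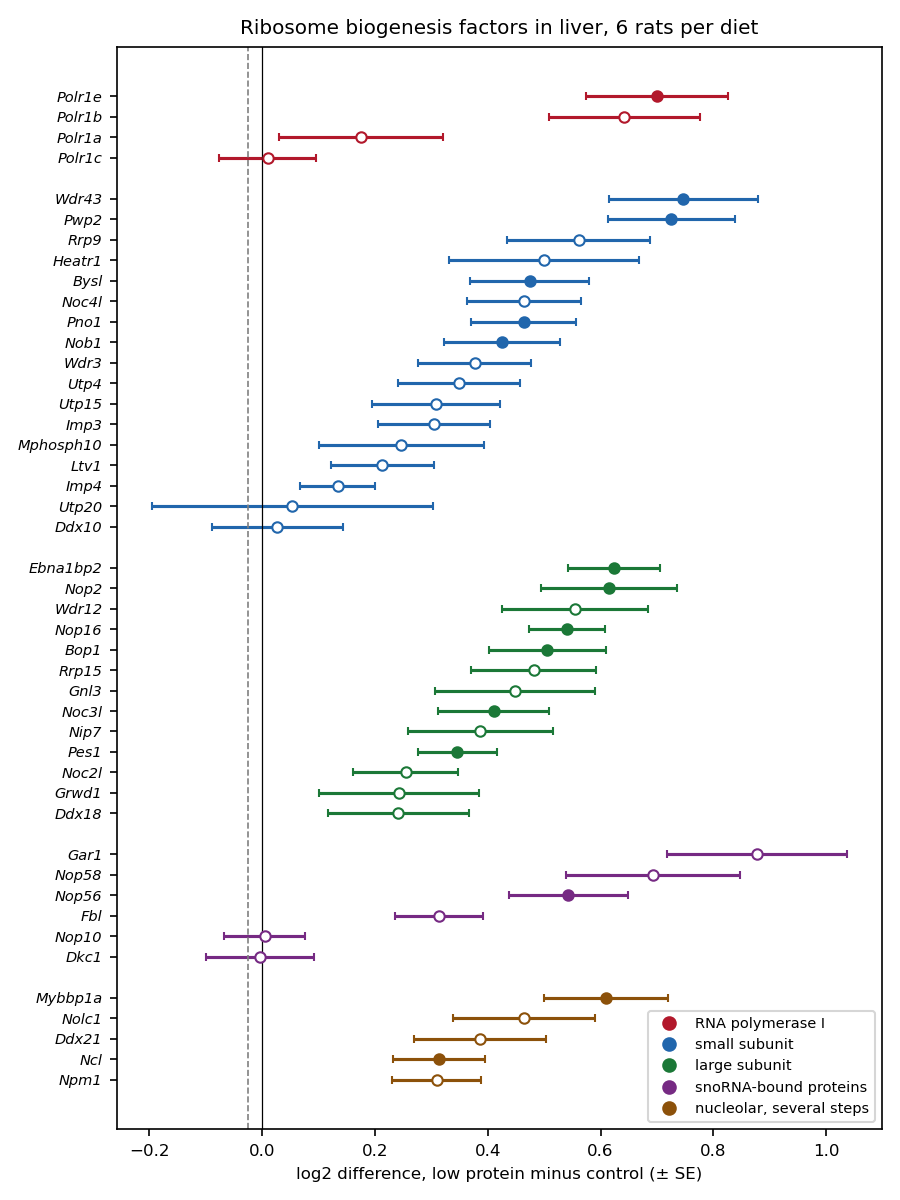
Log2 difference of each of the 45 measured members, low protein minus control, with its standard error (6 rats per diet), grouped by role. Filled points are the 15 members whose groups did not overlap and the dashed line is the median of all genes (-0.03); most members lie right of 0, while Dkc1, Nop10, Polr1c, Ddx10 and Utp20 lie next to it.

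The RNA polymerase I subunits did not move as a unit. Polr1e, which with Polr1g forms the dimer that aids initiation and elongation, lay at -3.73, -3.39 and -3.28 in the control rats (lowest, median and highest of 6, as in all such triplets below) and at -3.12, -2.62 and -2.50 in the low protein rats. The groups did not overlap, and the difference was 0.70 ± 0.13 (SE). Polr1b, the second largest subunit and part of the catalytic centre, lay at -3.79, -3.44 and -3.10 in control and -3.18, -2.70 and -2.57 in low protein livers. All but the lowest low protein rat were above every control rat, with a difference of 0.64 ± 0.13. Polr1a, the largest subunit, lay at -4.09, -3.72 and -3.31 against -3.75, -3.55 and -3.24. These ranges overlapped over most of their length (0.18 ± 0.15), and the difference was 0.28 on the first slide and -0.02 on the second. Polr1c, which polymerase III also uses, lay at 1.85, 1.99 and 2.27 against 1.90, 2.03 and 2.24, a difference of 0.01 ± 0.09.

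These subunits can also be compared within each rat, as a description, since the pairs were formed from members already seen to differ. The level of Polr1e less that of Polr1c, each set to its own control mean, was -0.25 to 0.27 in control rats and 0.37 to 0.94 in low protein rats, with no overlap. For Polr1e less Polr1a the ranges were -0.27 to 0.21 and 0.22 to 0.99, which just failed to meet. Polr1b less Polr1a ran from -0.41 to 0.49 in control rats and 0.23 to 0.89 in low protein rats, so these ranges overlapped. Polr1e, Polr1b and Polr1a are dim, and background correction by normexp gave 0.41 for Polr1e, 0.39 for Polr1b and 0.10 for Polr1a, lower values with the same direction. Polr1a also differed by 0.10 without control rat 4.

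Among the small subunit factors, 17 of 21 were measured, and their median difference was 0.38 (0.03 to 0.75). Wdr43, of the UTP-A complex that loads first on the nascent precursor, lay at -0.80, -0.55 and -0.21 in control and -0.12, 0.23 and 0.53 in low protein livers (0.75 ± 0.13). Its groups were apart, and its second probe gave a difference of 0.71. Pwp2, of the UTP-B complex that binds next, lay at -1.38, -1.32 and -1.15 against -0.90, -0.52 and -0.27 (0.73 ± 0.11), again without overlap. Rrp9, a protein of the U3 snoRNA particle, lay at -3.05, -2.62 and -2.32 against -2.36, -2.07 and -1.86 (0.56 ± 0.13). Only the ends of its ranges met. Heatr1, the large scaffold of UTP-A, varied more, with -3.91, -3.24 and -2.85 against -3.23, -2.73 and -2.53 (0.50 ± 0.17) and clear overlap. At the other end stood Ddx10, a nucleolar helicase, with -1.80, -1.36 and -1.27 against -1.77, -1.42 and -1.25 (0.03 ± 0.12): the diets covered the same range.

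The other small subunit members filled the space between. The factors of the late pre-40S particle were mostly in the upper part: Bysl (0.47 ± 0.11), the platform protein Pno1 (0.46 ± 0.09) and Nob1, the nuclease that makes the final cut of 18S rRNA (0.43 ± 0.10), each had groups that did not overlap. Ltv1, released from the same particle, differed by 0.21 ± 0.09, with overlap. Noc4l, which works with Nop14, differed by 0.46 ± 0.10, and Wdr3 of UTP-B by 0.38 ± 0.10. Utp4 (0.35 ± 0.11) and Utp15 (0.31 ± 0.11), both of UTP-A, overlapped between the diets. The 3 proteins of the Mpp10 complex, Imp3 (0.31 ± 0.10), Mphosph10 (0.25 ± 0.15) and Imp4 (0.13 ± 0.07), were low as a set and overlapped throughout. Utp20, a very large scaffold protein near background on these arrays, had an error (0.05 ± 0.25) too wide to place it. With normexp Rrp9 differed by 0.35 and Utp15 by 0.18, and without control rat 1 Mphosph10 differed by 0.16. UTP-A spanned 0.31 to 0.75 over 4 members, UTP-B 0.38 to 0.73 over 2 and Mpp10 0.13 to 0.31 over 3, groupings made after the values were seen.

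The large subunit factors all had differences above 0. Of 14, 13 were measured, with a median of 0.45 and a range of 0.24 to 0.62. Ebna1bp2, an early nucleolar assembly factor, lay at 1.26, 1.39 and 1.55 in control and 1.92, 2.0 and 2.26 in low protein livers (0.62 ± 0.08). A wide gap separated the groups, and its second probe differed by 0.56. Nop2, an RNA methyltransferase of the 28S precursor, lay at -0.19, 0.15 and 0.53 against 0.59, 0.73 and 1.13 (0.61 ± 0.12), with the groups just apart. Wdr12, of the PeBoW complex, lay at 0.13, 0.47 and 0.74 against 0.72, 1.02 and 1.39 (0.56 ± 0.13) and its ranges overlapped narrowly. Nop16, a nucleolar protein of the pre-60S particle, lay at 1.36, 1.5 and 1.62 against 1.99, 2.02 and 2.16 (0.54 ± 0.07). Rats within a diet were close together, and the groups were apart.

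Both partners of Wdr12 in PeBoW were also higher without overlap, Bop1 by 0.51 ± 0.10 and Pes1 by 0.35 ± 0.07. Noc3l, of the Noc complexes that accompany pre-60S particles, differed by 0.41 ± 0.10 with groups apart, and its relative Noc2l by 0.25 ± 0.09 with overlap. Rrp15 differed by 0.48 ± 0.11, the nucleolar GTPase Gnl3 (nucleostemin) by 0.45 ± 0.14, Nip7 by 0.39 ± 0.13 and Grwd1, a chaperone of a large subunit ribosomal protein, by 0.24 ± 0.14. All 4 overlapped. The lowest difference was that of the helicase Ddx18, at -5.11, -4.48 and -4.35 in control and -4.50, -4.27 and -4.18 in low protein livers (0.24 ± 0.12). Its ranges overlapped, and control rat 4 lay well under the rest of its group; without that rat the difference was 0.13. Normexp gave 0.07 for Ddx18, 0.11 for Grwd1, 0.25 for Noc3l and 0.31 for Rrp15. Without low protein rat 6 Grwd1 differed by 0.16, and on slide 2 alone Gnl3 differed by 0.30.

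The snoRNA-bound proteins held both the highest and the lowest difference of all 45. The box C/D particle, which methylates ribose, was higher in all 3 measured members. Nop58, a core protein, lay at -0.55, -0.24 and 0.25 in control and 0.15, 0.45 and 0.99 in low protein livers (0.69 ± 0.15), with 1 end of each range overlapping. Nop56, its partner, lay at 0.45, 0.68 and 0.85 against 0.97, 1.21 and 1.5 (0.54 ± 0.10), apart, and 0.65 by its second probe. Fbl (fibrillarin), the methyltransferase itself, lay at 1.97, 2.06 and 2.28 against 2.24, 2.41 and 2.56 (0.31 ± 0.08). Only the highest control rat reached into the low protein range.

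The box H/ACA particle, which turns uridine into pseudouridine, was uneven. Gar1, the subunit that helps the finished enzyme release its substrate, lay at -3.43, -3.25 and -2.73 in control and -2.74, -2.32 and -1.87 in low protein livers. Its difference of 0.88 ± 0.16, a ratio of 1.84, was the largest of the 45; normexp gave 0.61. The groups met at a single point, the highest control and the lowest low protein rat. Dkc1 (dyskerin), the pseudouridine synthase of the same particle, lay at -0.40, -0.16 and 0.05 against -0.37, -0.14 and -0.07, a difference of -0.00 ± 0.10. A second, dimmer Dkc1 probe gave 0.16, the only case among 11 members with several passing probes in which the probes differed in sign. Nop10, a small core subunit, lay at 3.14, 3.31 and 3.41 against 3.13, 3.32 and 3.41 (0.00 ± 0.07). The pairs with Gar1 were also formed from members already seen to differ, so they are a description. In each rat, Gar1 less Dkc1 by its brighter probe (each against its control mean) was -0.30 to 0.66 in control livers. In low protein livers it was 0.64 to 1.23, and the ranges only touched. Gar1 less Nop10 was -0.34 to 0.46 in control and 0.37 to 1.35 in low protein livers, ranges that overlapped.

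**Figure D2:**
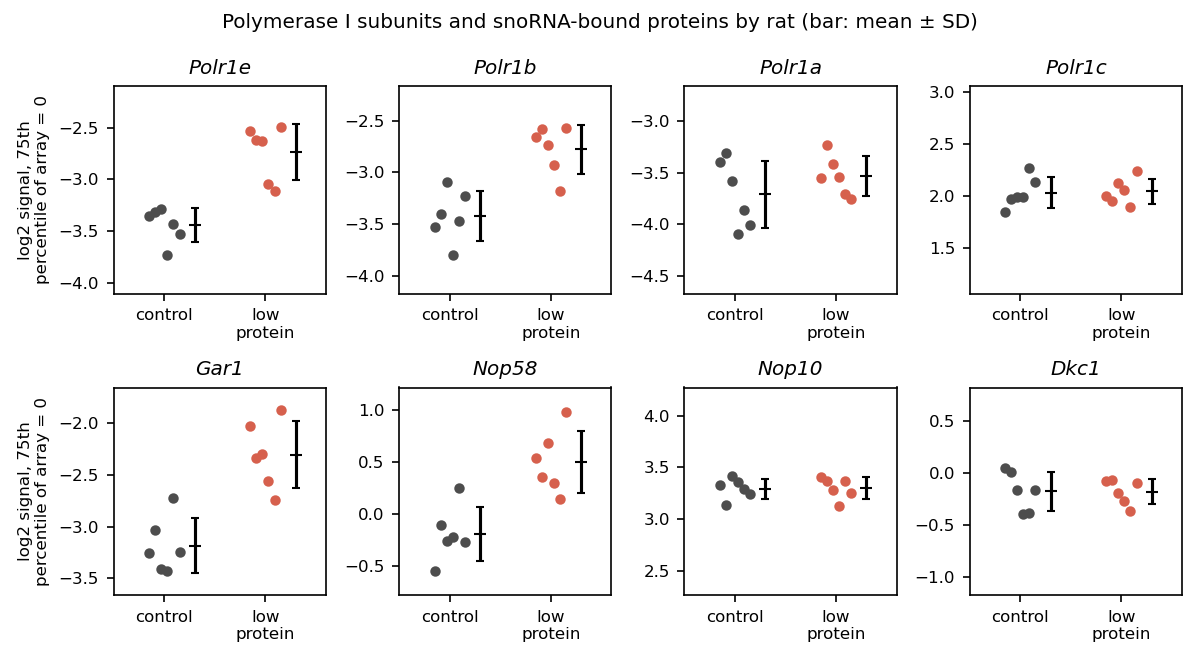
Log2 level in each rat (points) with mean ± SD (bars, 6 rats per diet) for the 4 RNA polymerase I subunits and 4 snoRNA-bound proteins; all panels span the same number of log2 units. Polr1e, Polr1b, Gar1 and Nop58 are shifted up in low protein livers, whereas Polr1c, Nop10 and Dkc1 cover the same range in both diets.

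The nucleolar proteins that serve several steps were higher in all 5 cases. Mybbp1a, which associates with polymerase I and processing complexes, lay at -2.36, -2.08 and -1.83 in control and -1.68, -1.39 and -1.20 in low protein livers (0.61 ± 0.11), with groups apart. Nolc1, a chaperone of snoRNA particles, lay at 0.61, 0.94 and 1.13 against 1.12, 1.34 and 1.71 (0.46 ± 0.13), barely overlapping. Ddx21, a helicase of polymerase I and snoRNA complexes, lay at -0.10, 0.13 and 0.38 against 0.38, 0.49 and 0.97 (0.39 ± 0.12). The highest control and the lowest low protein rat were level to the decimals shown, and its 3 probes gave 0.33 to 0.39. Ncl (nucleolin) lay at 3.09, 3.18 and 3.36 against 3.39, 3.46 and 3.78 (0.31 ± 0.08), apart by a narrow gap. Npm1 (nucleophosmin), a histone and ribosomal protein chaperone, lay at 4.5, 4.72 and 4.93 against 4.93, 5.01 and 5.09 (0.31 ± 0.08). Its ranges met at the ends, and its 4 probes gave 0.27 to 0.32.

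Set side by side, the polymerase I, small subunit and large subunit factors among the measured members differed little as groups. The mean of each role in each rat, relative to the control mean, was 0.38 ± 0.16 (SD, n = 6) in low protein rats for polymerase I, 0.38 ± 0.13 for the small subunit and 0.43 ± 0.14 for the large subunit. The gaps between these means are smaller than the spread between rats. That spread does not measure the error of a gap between roles, because all roles were measured in the same rats. No test was made because the members were chosen on this comparison. The SD among control rats was 0.15, 0.14 and 0.11. The low protein means of the small subunit (0.20 to 0.49) and large subunit (0.27 to 0.64) lay above all control means (-0.21 to 0.16 and -0.12 to 0.13). Those of polymerase I (0.11 to 0.51) overlapped the control means (-0.27 to 0.14). The snoRNA-bound proteins (0.40 ± 0.15) and the nucleolar proteins of several steps (0.42 ± 0.13) were in the same band.

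Inside the roles the differences ranged from 0.01 to 0.70 for the 4 polymerase I members, 0.03 to 0.75 for the 17 small subunit factors, 0.24 to 0.62 for the 13 large subunit factors, -0.00 to 0.88 for the 6 snoRNA-bound proteins and 0.31 to 0.61 for the 5 nucleolar proteins. Whether this scatter differs between roles of such unequal size was not tested. Counting Mybbp1a with polymerase I would raise the median of that role from 0.41 to 0.61, and normexp would lower it to 0.24, so that median of 4 genes is weakly fixed.

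**Figure D3:**
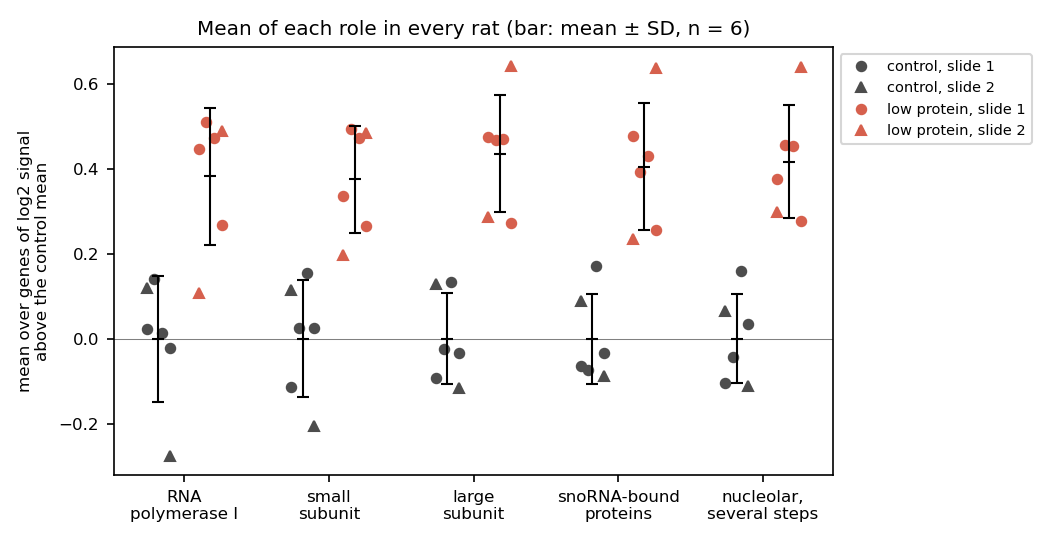
Mean over the members of each role in each rat, on the log2 scale relative to the control mean (0); circles are slide 1, triangles slide 2, bars mean ± SD of 6 rats per diet. In all roles but RNA polymerase I the 6 low protein rats lie above the 6 control rats.

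Rats of the same diet also differed in the mean of the members. The mean over all 45 was -0.16 in control rat 4, -0.09 in control rat 1 and 0.14 in control rat 5. On the low protein diet it was 0.23 in rat 5, 0.27 in rat 4 and 0.57 in rat 6, so the 6 low protein rats all lay above the control rats. Control rat 4 had the lowest control value in 19 of the 45 members and rat 1 in 16, whereas rat 5 had the highest in 19. Low protein rat 6 had the highest value of its diet in 28 members, and rats 5 and 4 the lowest in 18 and 16. The SD among rats of a typical member was alike in both diets, 0.18 for control and 0.18 for low protein (medians over the members).

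The arrays lay on 2 slides that were each scanned as their own batch. Slide 1 held 4 rats of each diet and slide 2 held 2 of each: rats 2 and 4 of the control diet, 5 and 6 of the other. Within slide 1 the median difference was 0.39, with 43 of 45 members above 0, and within slide 2 it was 0.44, with 41 above 0. By role it was 0.44 and 0.40 for polymerase I, 0.38 and 0.43 for the small subunit and 0.45 and 0.41 for the large subunit. The members below 0 on either slide, such as Polr1a, Utp20 and Ddx10 on slide 2, were among those with the smallest differences overall.

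**Figure D4:**
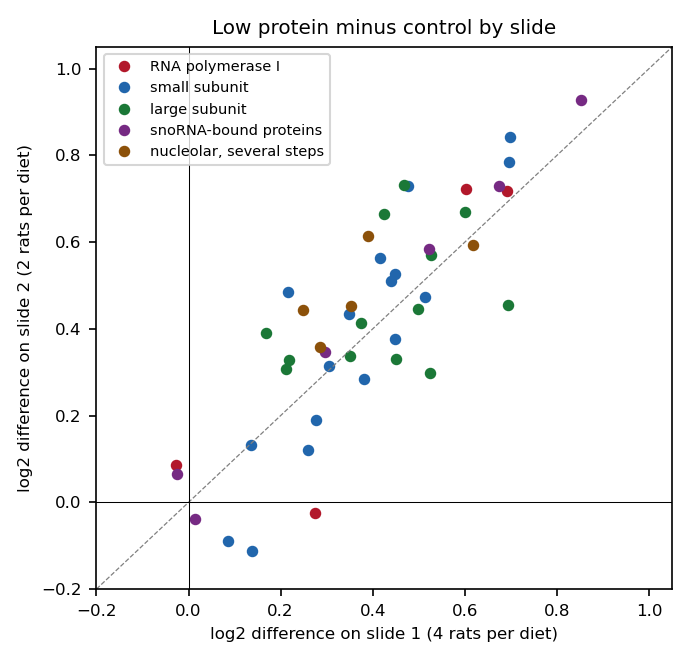
Log2 difference of each member on slide 2 (2 rats per diet, vertical) against slide 1 (4 rats per diet, horizontal), coloured by role, with the line of equality dashed. The medians are 0.39 and 0.44, and most points lie right of and above 0; Polr1a differs between the slides (0.28 and -0.02).

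Ribosome biogenesis genes outside the 51 were also, as a list, higher in low protein livers, with smaller differences. They were not used in choosing the members, but their list was drawn up with the earlier results known. Of 132 listed, 107 were measured. Of these, 95 were above 0 and 12 below, where 9823 of all 21874 genes were above 0. Their median was 0.21 beside -0.03 for all genes. limma called 25 of them higher and 0 lower at an adjusted p under 0.05 over all genes (23.4% higher, against 3.48% of all genes higher and 3.05% lower). An unadjusted p under 0.05 in limma, in either direction, was found for 51 of the 107, beside 4722 of all 21874 genes. In 17 the groups did not overlap with low protein higher, as in 3% of all genes. The count fell with any 1 rat left out, to between 9 and 22. Calls over all genes fell too, from 1429 to between 856 and 1307. On this list, leaving out control rat 3 gave 9 calls. With control rat 1, control rat 6 or low protein rat 2 left out there were 13 calls, with low protein rat 1 or 6 left out 14, with control rat 4 left out 15 and with low protein rat 3 left out 16. Without scaling between arrays the list had 14 calls. The median difference by slide was 0.22 and 0.19, while the calls fell to 3 on slide 1 and 0 on slide 2, where fewer rats were compared.

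Around polymerase I, 2 of 14 measured genes were called higher and 11 were above 0, and the median was 0.08. Polr1g, the partner of Polr1e, lay at -2.21, -2.00 and -1.69 in control and -1.50, -0.92 and -0.80 in low protein livers. This was the largest rise on the list (0.92 ± 0.14, adjusted p = 0.00253, limma), with groups apart. The call held without the filter, without scaling and with any 1 rat left out. Both partners of that dimer thus stood at the top of the polymerase I genes. Taf1c, a subunit of the selectivity factor that recruits the polymerase to its promoter, rose by 0.34 ± 0.09 (adjusted p = 0.0446), a call that was lost in 10 of 12 fits with 1 rat left out (adjusted p up to 0.104), without the dim filter (0.131) and with the percentile over detected probes (0.0589). The initiation factors Rrn3 (0.09 ± 0.11, adjusted p = 0.681) and Ubtf (0.10 ± 0.07, adjusted p = 0.489) did not pass the test.

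Myc, whose product is known to drive ribosome biogenesis genes, varied widely among rats. It lay at -1.97, -1.50 and 0.02 in control and -2.21, -0.55 and 0.80 in low protein livers, with nearly full overlap. The difference of 0.60 ± 0.53 did not pass (adjusted p = 0.571, limma), and it was 1.00 on slide 1 and -0.18 on slide 2. At this spread a change of that size was not detectable.

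In the small subunit list, 6 of 32 measured genes were called higher and 30 were above 0, with a median of 0.17. Rrp8 lay at -4.07, -3.80 and -3.62 in control and -3.43, -3.00 and -2.92 in low protein livers, apart, and rose by 0.76 ± 0.11 (adjusted p = 0.00233, limma). It stands in this list although it is known as a methyltransferase of 28S rRNA. Utp3 (0.43 ± 0.10, adjusted p = 0.0243), Wdr46 (0.47 ± 0.11, adjusted p = 0.0299) and Utp25 (0.47 ± 0.12, adjusted p = 0.0321), all processome proteins, passed as well. With 1 rat left out the calls were lost in 5, 9 and 8 of 12 fits, at an adjusted p of up to 0.0543, 0.0729 and 0.0700, and without the dim filter all of them were lost. Without scaling Wdr46 did not pass (0.0707). Tsr2, a chaperone of a small subunit ribosomal protein, rose by 0.30 ± 0.08 (adjusted p = 0.0421), but the mean of its probes gave 0.11 with an adjusted p of 0.390, and the call was lost in 11 of 12 fits with 1 rat left out.

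In the large subunit list, the longest, 12 of 42 measured genes were called higher (28.6%) and 38 were above 0, with a median of 0.29. Ppan, an early pre-60S factor, lay at 0.26, 0.69 and 0.88 in control and 1.03, 1.72 and 1.80 in low protein livers, apart (0.90 ± 0.16, adjusted p = 0.00621, limma). Nle1, which docks the remodelling ATPase of the pre-60S particle, lay at -2.69, -2.55 and -2.35 against -2.20, -1.91 and -1.58 (0.64 ± 0.11, adjusted p = 0.00536), also apart. Mrto4, a placeholder for the ribosomal stalk, rose by 0.38 ± 0.08 (adjusted p = 0.0182). Sdad1 rose by 0.39 ± 0.09 (adjusted p = 0.0188) and Rpf2, which brings in the 5S particle, by 0.51 ± 0.11 (adjusted p = 0.0193). The calls of Ppan and Nle1 held without the dim filter, without scaling and with any 1 rat left out. Without the filter those of Mrto4 (adjusted p = 0.0648), Sdad1 (0.0662) and Rpf2 (0.0607) were lost, and without scaling those of Sdad1 (0.0511) and Rpf2 (0.0657).

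Of the assembly factors of snoRNA particles, 3 of 9 were called higher (33.3%) and 8 were above 0, with a median of 0.22. Znhit6, needed for box C/D particles, lay at 0.36, 0.54 and 0.68 in control and 0.82, 0.99 and 1.06 in low protein livers, apart (0.44 ± 0.08, adjusted p = 0.00618, limma). Nufip1, of the same pathway, rose by 0.32 ± 0.08 (adjusted p = 0.0297), and the helicase Ruvbl2 by 0.25 ± 0.07 (adjusted p = 0.0390). These calls were lost in 9 and 11 of 12 fits with 1 rat left out (adjusted p up to 0.0662 and 0.0820), without scaling (0.0950 and 0.0917) and without the filter (0.1001 and 0.138), whereas that of Znhit6 held in all of these. In the RNA exosome, which trims rRNA ends, 2 of 10 were called higher and 8 were above 0, with a median of 0.12. The cap subunit Exosc2 rose by 0.34 ± 0.07 (adjusted p = 0.0175, limma) and the ring subunit Exosc4 by 0.25 ± 0.06 (adjusted p = 0.0288). Exosc4 lost its call in 6 of 12 fits with 1 rat left out, and both lost it without scaling (0.0656 and 0.111) and without the filter (0.0669 and 0.113).

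**Figure D5:**
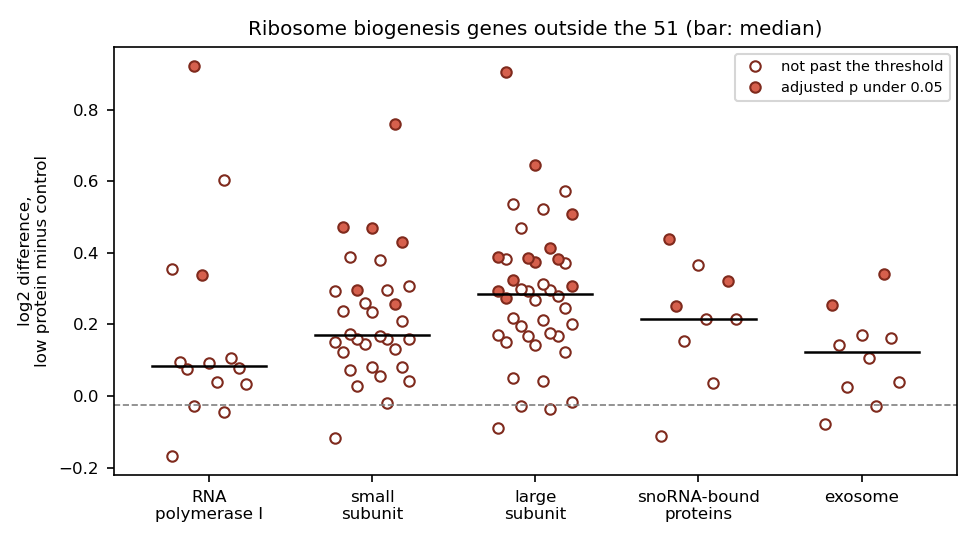
Log2 difference, low protein minus control, of the 107 measured ribosome biogenesis genes outside the 51, by role; filled points passed an adjusted p under 0.05, short bars are medians and the dashed line is the median of all genes (-0.03). The medians are 0.08, 0.17, 0.29, 0.22 and 0.12 from left to right, and no filled point lies below 0.

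The tissue label fitted the markers, since all 6 hepatocyte genes checked were bright. Their signals, summed in units of the 75th percentile, were 624 to 732 in control and 543 to 709 in low protein rats; of the 6, Apoa1 fell by 0.84 (SE 0.14, adjusted p = 0.00387, limma) and Alb differed by -0.20 ± 0.07 (adjusted p = 0.114). Such sums are weighted toward the brightest probe, here Clec4f for Kupffer cells and Kdr for endothelial cells, and do not describe each marker. The sums of the 6 Kupffer cell markers were 13.4 to 28.5 and 13.6 to 19.9. Of these 6 markers 0 were called, but all 6 had a difference below 0 (median -0.38). The sums of 4 bile duct markers were 0.230 to 0.396 and 0.192 to 0.290 (0 called). For 6 stellate cell markers they were 3.03 to 3.99 and 2.87 to 4.01, and for 4 of 5 endothelial markers 10.05 to 12.6 and 10.3 to 12.6, with 0 called in both. Of 5 lymphocyte markers 2 were measured (0.262 to 0.390 and 0.222 to 0.386). Of these, Ptprc fell by 0.43 (SE 0.11, adjusted p = 0.0292, limma), while Cd8a differed by 0.19 (SE 0.49, adjusted p = 0.869). Ribosome biogenesis is known to run with cell division. Of 12 proliferation genes 9 were measured, with sums of 1.49 to 1.92 in control and 1.41 to 1.93 in low protein rats. Of the 9, 3 were above 0 and 6 below, with a median difference of -0.31. At the threshold 0 were called higher and 1 lower, Rrm2, which fell by 1.11 (SE 0.28, adjusted p = 0.0370, limma). The highest difference was that of Tyms (0.37, SE 0.17, adjusted p = 0.219, limma). The part of these cell type and proliferation markers in the results was not tested.

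Between 61.2% and 69.9% of the 58717 non-control spots of an array exceeded background clearly, and the median standard error of a gene's difference was 0.13. Of all genes, 1429 (6.53%) were called in either direction. The number of arrays limits the precision.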

How the data were processed

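Liver RNA of 12 rats, 6 per diet, was measured on single-colour arrays. Scans were read with Agilent Feature Extraction 12.0.3.1, per the file headers, and the deposited scanner files hold background-subtracted processed intensity on a linear scale, not scaled between arrays. The deposited value table holds the median intensity of the spots, unscaled, and was used as an alternative. Here log2 of the deposited processed intensity less each array's 75th percentile was used, spots marked as outliers were set missing, and spots of a probe were averaged. A probe had to be well above background in 5 or more of the 6 rats of either diet, with 1 probe per gene, that of the highest mean. Genes were named by RefSeq accession through a GRCr8 table, which named 21215 of 45598 probes; the headers name another build, so only promoter coordinates, from RefSeq's GRCr8, are given. Diets were compared by a two-sided limma 3.58.1 fit (lmFit, eBayes; R 4.3.3), and p-values were adjusted by Benjamini-Hochberg across the 21874 genes; the fit was tested on simulated data. The members, roles, gene lists and tests were chosen with earlier results of these data known. Triplets are given for all polymerase I members and, per other role, the 4 largest and the lowest difference, with Nop10 added; of the other genes, up to 5 called per role with the smallest adjusted p and Myc, Rrn3 and Ubtf are named. Alternatives covered background, scaling, filter, probes, spread, slide, rat number and each array left out; the files hold no mean signal, so normexp (offset 50) used the median signal. Protein sequences were not analysed here. Each numbered sample was taken as a separate rat, although the labels do not say how the livers were sampled. If tissue samples were split, p-values would measure technical spread.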

Additional observations from a re-analysis of the deposited data

Results flagged for a closer look

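Of 104 groups of 6 rats checked for a sample far from the others with Dixon's test, 6 were noted; chance alone marks about 1 group in 20. In 3 of them control rat 4 was the lowest: Bop1 at -2.51 (next rat -2.21, other end -2.05), Ddx18 at -5.11 (next -4.56, other end -4.35) and Nob1 at -1.01 (next -0.84, other end -0.74). Low protein rat 6 was the highest for Nop16 at 2.16 (next 2.05, other end 1.99) and for Ncl at 3.78 (next 3.53, other end 3.39). Low protein rat 1 was the lowest for Ddx10 at -1.77 (next -1.43, other end -1.25). These are the log2 levels used in the report, and both rat 4 and rat 6 lay on slide 2.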

How the results depend on the processing

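The median difference of the members stayed above 0 under every alternative run, and no called member changed direction. Of the small differences, the sign turned under some settings for Polr1a, Polr1c, Utp20, Ddx10, Dkc1 and Nop10. Counts of calls moved more. All genes called, 1429, became 891 without scaling, 618 without the dim filter, 164 on slide 1, 12 on slide 2 and 437 at an adjusted p under 0.01; with 1 rat left out they were 856 to 1307. Members called higher, 26, became 12 without the filter, 3 on slide 1, 0 on slide 2 and 7 at the stricter threshold; with 1 rat left out they were 16 (control rat 3) to 23. Other biogenesis genes called higher, 25, became 14 without scaling, 5 without the filter, 3 on slide 1, 0 on slide 2, 5 at the stricter threshold and 9 to 22 with 1 rat left out; 1 was called lower under quantile normalization. Slide alternatives hold fewer rats and the unfiltered fit tests more genes; the cause of the other changes was not tested. Without scaling the median of all genes moved from -0.03 to 0.11, and those of the members to 0.54 over all, 0.51 for the small subunit, 0.58 for the large subunit, 0.56 for snoRNA-bound and 0.52 for nucleolar proteins; relative to all genes the member median was 0.44 either way. The deposited values without scaling gave 0.53 for the small subunit. The polymerase I median was 0.24 with normexp and 0.61 with Mybbp1a added. Of all calls 53.3% were higher, against 76.2% without scaling, 81.2% for the deposited values without scaling and 40.2% with the percentile over detected probes. Myc was -0.18 on slide 2 alone. The share of promoters with the motif was 16.3% in the 250 bases before the start, 20.4% in the 50 after it and 77.6% for CANNTG (69.1% of all promoters). The rat numbers of the 2 diets are not linked by the labels. Same-numbered rats had correlations of 0.03 to 0.26, and 2 of 6 numbers matched best with their own. With the number as a replicate block, 19 members and 12 other biogenesis genes were called higher, against 26 and 25 in the main fit. The share of all genes called with that block is not given here, so nothing is read from these counts. Low signal limits Utp20, which was well above background on 5 of 6 low protein arrays.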
